A study of Arabidopsis thaliana with 4 samples.

Results

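The nuclear genes for light-harvesting, photosystem and Rubisco small subunit proteins were examined in leaf primordia of Arabidopsis thaliana, wild type against the mutant an3-4. The list held 42 nuclear loci, chosen by locus: 6 for the antenna of photosystem I (LHCA), 14 for the antenna of photosystem II (LHCB), 11 for photosystem I subunits (PSA), 8 for photosystem II subunits (PSB) and 3 for the small subunit of Rubisco (RBCS). The chip annotation used here named a probe set for 7 of the 42 loci, with 1 probe set each: 3 LHCB, 2 PSA and 2 PSB genes, among 13286 genes named on the chip. The other 35 loci, all LHCA and RBCS loci among them, were not analysed here. The 7 genes are therefore a small sample of the list, and no statement below covers the LHCA or RBCS families.

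The data were 4 expression arrays, 2 of wild type and 2 of an3-4, both in the ecotype Col-0. ANGUSTIFOLIA3 (AN3) encodes a coactivator of transcription that sustains cell division in developing leaves, and an3-4 is a mutant allele of the gene. Both genotypes grew at 22 °C in continuous light, and the first leaf primordia were collected 7 days after sowing. Nothing in the labels ties the replicate arrays to separate cultures or gives the number of plants pooled, so p-values measure only how far these arrays differ, which may be technical.

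In plants, the light-harvesting proteins bind chlorophyll and pass light energy to the photosystem cores, which sit in the thylakoid membrane of the chloroplast. Core proteins that carry the cofactors are encoded in the plastid genome, while the antenna and many of the small subunits are encoded in the nucleus and imported. Transcripts of the nuclear genes accumulate as leaf cells leave division and their chloroplasts mature, which is why the list serves as a readout of leaf maturation.

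Values below are microarray signals, 1 per probe set and array, on a linear scale. The deposited arrays numbered 1 had a trimmed mean signal of 143 and those numbered 2 of 169, in both genotypes, so all arrays were brought to 1 trimmed mean of 155. Because each number holds 1 array of each genotype, this step does not alter the log2 fold change. Each probe set was tested with limma on the log2 scale, and a gene was called changed at a Benjamini-Hochberg adjusted p under 0.05 over all 13647 probe sets tested. Of these, 896 were higher and 789 lower in an3-4 (726 and 974 after median centring of the arrays), and the median log2 fold change was 0.02. The annotation names 0 probe sets for AN3 itself, so the genotype labels were not checked against it. Of 9 leaf primordium markers 2 were measured, and neither was called. YAB3, a leaf polarity gene, had signals of 338 and 378 in wild type and 325 and 365 in an3-4, which overlapped. JAG, a leaf growth gene, had signals of 60.8 and 86.7 in wild type and 46.2 and 51.8 in an3-4, both below both wild-type signals. On the log2 scale JAG differed by -0.57 ± 0.20, and its adjusted p in limma was 0.0952. Of 6 root markers 1 was measured. PYK10, a beta-glucosidase gene abundant in roots and also active in the seedling epidermis, had signals from 3943 to 4474 on the 4 arrays and a log2 fold change of 0.05 ± 0.08 (SE). No marker of the shoot meristem, seed storage, epidermis, vascular or senescence lists had a named probe set, and those tissues were not analysed here. RNA integrity was read from 6 pairs of control probe sets against opposite ends of housekeeping transcripts. The pairs cover only actin, GAPDH and ubiquitin, each more than once, so they are not independent readings. The log2 ratio of the 3' to the 5' signal was above both wild-type values on both mutant arrays for 3 of the 6 pairs. These were the ubiquitin pairs and an actin pair, while the other actin pair overlapped. Over the 6 pairs the differences ran from -0.02 to 0.23. The part of JAG and of these ratios in the results below was not tested.

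Of the 7 photosynthesis genes, 1 fell in an3-4 and 0 rose, against 5.78% of all tested probe sets called lower and 6.57% called higher. The gene that fell was LHCB4.2, to 0.764 of its wild-type level. In these bulk samples, fewer cells that express a gene and less RNA of it per cell cannot be told apart. The share called, 14.3% of the 7, was near the 12.3% of all tested probe sets that were called in either direction, so the count is not a result about these genes. Without adjustment, limma gave p under 0.05 for 2 genes with a positive and 1 with a negative difference. Such p-values were common over the 13647 probe sets tested. The probe set ranked 3098 by limma p had 0.0399, and that ranked 3607 had 0.0592. The unadjusted count is therefore not read as a result about these genes. On the scale as deposited, limma called 0 of the 7 against 2.88% of all tested probe sets. There 0 of the 7 had an unadjusted p under 0.05 in limma. The share of all probe sets under that limit was not computed, so this count is not read as a result either. The log2 fold changes of 6 of the 7 were above 0, against 54.2% of all tested probe sets, although that of PSBY turned to 0 after median centring and below 0 in some fits without 1 array. The median over the 7 was 0.12. Most of the 7 are bright, and among the 10% of probe sets with the highest mean signal 45% were above 0, the median was -0.02 and 16.8% were called. The signals of the genotypes did not overlap for 4 of the 7 genes (57.1%), against 53.5% of all tested probe sets. Of the 4, LHCB4.1 was barely apart, with 5048 on an3-4 replicate 2 and 5047 on wild-type replicate 2. All 7 passed the filter on low signals.

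**Figure D1:**
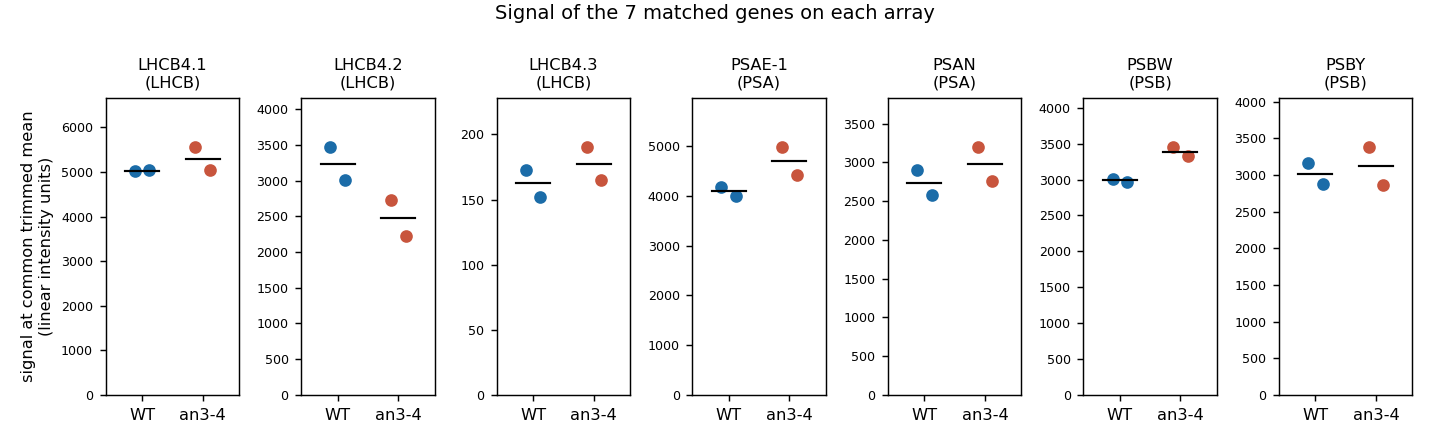
Signal of each of the 7 matched genes on the 4 arrays at a common trimmed mean, in linear intensity units with every axis starting at 0; points are arrays (replicate 1 left, replicate 2 right) and bars are the means of 2. Both LHCB4.2 signals in an3-4, 2724 and 2230, lie below both in wild type, 3463 and 3004, while the points of the other genes lie within or above the wild-type range, except 1 PSBY point at 2870, just below it.

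All 3 measured antenna genes belong to 1 small family. LHCB4.1 (AT5G01530), LHCB4.2 (AT3G08940) and LHCB4.3 (AT2G40100) encode forms of CP29, a minor antenna protein that sits between the main trimeric antenna and the photosystem II core. The main trimeric antenna genes, LHCB1, LHCB2 and LHCB3, were not analysed here.

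LHCB4.2 had signals of 3463 and 3004 in wild type and of 2724 and 2230 in an3-4. Both mutant signals were below both wild-type signals, and an3-4 was the lower of each same-numbered pair, by log2 differences of -0.35 and -0.43. The mean fell from 3233 ± 325 to 2477 ± 349 (SD, n = 2), a log2 fold change of -0.39 ± 0.10 (SE) with a 95% interval from -0.60 to -0.18 (limma adjusted p = 0.0198). The interval corresponds to between 0.66 and 0.886 of the wild-type level. The call depended on the processing. It was lost on the scale as deposited (adjusted p = 0.565), without the filter on low signals (0.106) and without the intensity trend in the variance (0.162), each with a log2 fold change of -0.39. It was also lost without wild-type replicate 1, when the log2 fold change was -0.29, and without an3-4 replicate 2, when it was -0.24. Across all 12 alternatives the log2 fold change stayed between -0.53 and -0.24, and 7 kept the call.

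**Figure D2:**
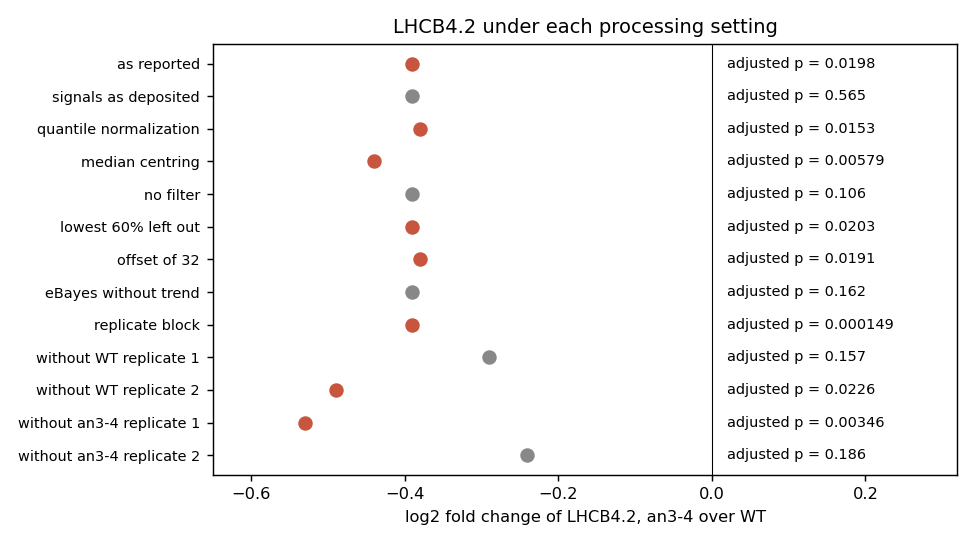
Log2 fold change of LHCB4.2, an3-4 over wild type, as reported and under 12 alternative settings, with the limma adjusted p printed beside each; red points passed an adjusted p of 0.05 and grey points did not. All points lie below 0, between -0.53 and -0.24, and 5 of the alternatives are grey.

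LHCB4.1 had signals of 5016 and 5047 in wild type and of 5549 and 5048 in an3-4. The wild-type arrays and an3-4 replicate 2 were almost level, and an3-4 replicate 1 was higher. The log2 fold change was 0.07 ± 0.07 (limma adjusted p = 0.595), and its 95% interval of 0.944 to 1.17 of the wild-type level leaves room for a small change either way.

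LHCB4.3 had signals of 173 and 152 in wild type and of 190 and 165 in an3-4. The genotypes overlapped. Its log2 fold change was 0.13 ± 0.12 (limma adjusted p = 0.588), with an interval from 0.908 to 1.31 of the wild-type level. Its SE was the largest of the 7.

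Because the array scale cancels in a ratio taken within 1 array, the family members were also set against each other. The log2 ratio of LHCB4.2 to LHCB4.1 was -0.53 and -0.75 in wild type and -1.03 and -1.18 in an3-4. The ratio was lower on both an3-4 arrays, with a difference of -0.46 between genotypes against a largest gap of 0.21 between replicates. For LHCB4.3 over LHCB4.2 the log2 ratios were -4.32 and -4.30 in wild type and -3.84 and -3.76 in an3-4, a difference of 0.51 against a largest gap of 0.09. The log2 ratio of LHCB4.3 to LHCB4.1 overlapped between genotypes, with a difference of 0.05. Both ratios that set the genotypes apart include LHCB4.2, so they restate its lower signal in an3-4 relative to its 2 relatives on these arrays. All the ratios are given as a description and were not tested.

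For photosystem I, 2 small subunits were measured. PSAE-1 (AT4G28750) encodes subunit E on the stromal side, which takes part in the docking of ferredoxin. PSAN (AT5G64040) encodes subunit N on the lumenal side, which acts in the interaction with plastocyanin.

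PSAE-1 had signals of 4181 and 4011 in wild type and of 4978 and 4416 in an3-4. Both an3-4 signals were above both wild-type signals. The means were 4096 ± 120 and 4697 ± 397 (SD, n = 2), and the log2 fold change of 0.20 ± 0.08 was not called (limma adjusted p = 0.129), with a 95% interval from 0.03 to 0.36.

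PSAN had signals of 2902 and 2580 in wild type and of 3194 and 2756 in an3-4, so the genotypes overlapped. In each genotype replicate 1 was the brighter array, as for the other listed genes except LHCB4.1 in wild type. Its log2 fold change was 0.12 ± 0.09 (limma adjusted p = 0.462), with an interval from 0.951 to 1.24 of the wild-type level.

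For photosystem II, 2 small membrane subunits were measured. PSBW (AT2G30570) encodes subunit W, which helps to hold antenna and core together in larger complexes, and PSBY (AT1G67740) encodes the precursor of subunit Y.

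PSBW had signals of 3012 and 2972 in wild type and of 3447 and 3332 in an3-4. The genotypes did not overlap, and the replicates of each genotype lay close together. The means were 2992 ± 27.8 and 3389 ± 81.3 (SD, n = 2), and the log2 fold change of 0.18 ± 0.07 was not called (limma adjusted p = 0.126), with a 95% interval from 0.03 to 0.33.

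PSBY had signals of 3162 and 2881 in wild type and of 3378 and 2870 in an3-4. The an3-4 arrays lay on both sides of the wild-type pair. Its log2 fold change was 0.04 ± 0.09 (limma adjusted p = 0.811), with an interval from 0.905 to 1.18 of the wild-type level.

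**Figure D3:**
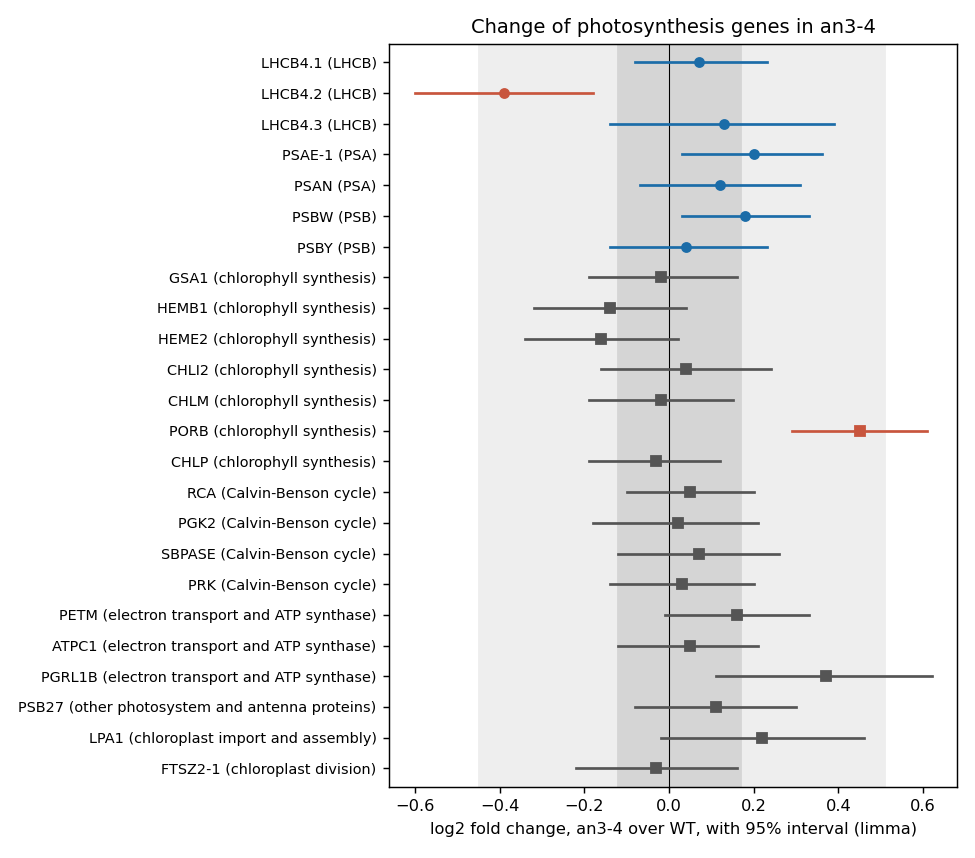
Log2 fold change of an3-4 over wild type with its 95% interval from limma for the 7 matched genes (circles) and 17 genes of other photosynthesis lists (squares); red marks an adjusted p under 0.05, the dark band reaches from the 25th to the 75th percentile of all 13647 tested probe sets, -0.12 to 0.17, and the pale band reaches from the 5th to the 95th percentile, -0.45 to 0.51. The red points are LHCB4.2, to the left of the dark band, and PORB, to its right. Both points lie inside the pale band, but their intervals reach beyond it, to -0.6 and 0.61. The points of PSAE-1, PSBW, PGRL1B and LPA1 also lie to the right of the dark band, and those of HEMB1 and HEME2 to its left.

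Photosystem I was compared with photosystem II and with the antenna. The median log2 fold changes were 0.16 for the 2 PSA genes, 0.11 for the 2 PSB genes and 0.07 for the 3 LHCB genes, beside 0.02 for all tested probe sets. These medians were not tested. Without 1 array they ranged from 0.06 to 0.25 for PSA, from 0.04 to 0.18 for PSB and from 0 to 0.14 for LHCB genes. The mean over the 3 LHCB genes, which the differences below use, was -0.06 and thus opposite in sign to their median. Within each array, the mean log2 signal of the PSA genes minus that of the PSB genes was 0.17 and 0.14 in wild type and 0.22 and 0.17 in an3-4. The genotypes met at 0.17, and the difference of 0.04 was under the largest gap between replicates, 0.05. A difference between the photosystems was not detectable with these arrays, which does not show that they changed alike.

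The PSA genes minus the LHCB genes gave 1.27 and 1.28 in wild type and 1.49 and 1.51 in an3-4. Here the genotypes were apart, by 0.22 against a largest gap of 0.02. The PSB genes minus the LHCB genes gave 1.1 and 1.15 in wild type and 1.26 and 1.33 in an3-4, a difference of 0.18. Both differences were smaller without LHCB4.2. With LHCB4.1 and LHCB4.3 alone as the antenna, a choice made after the values were seen, the differences between genotypes were 0.06 for the PSA genes and 0.01 for the PSB genes. The PSA values, 1.90 and 1.88 in wild type and 1.96 and 1.94 in an3-4, were still apart, against a largest gap of 0.03, and the PSB values overlapped.

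**Figure D4:**
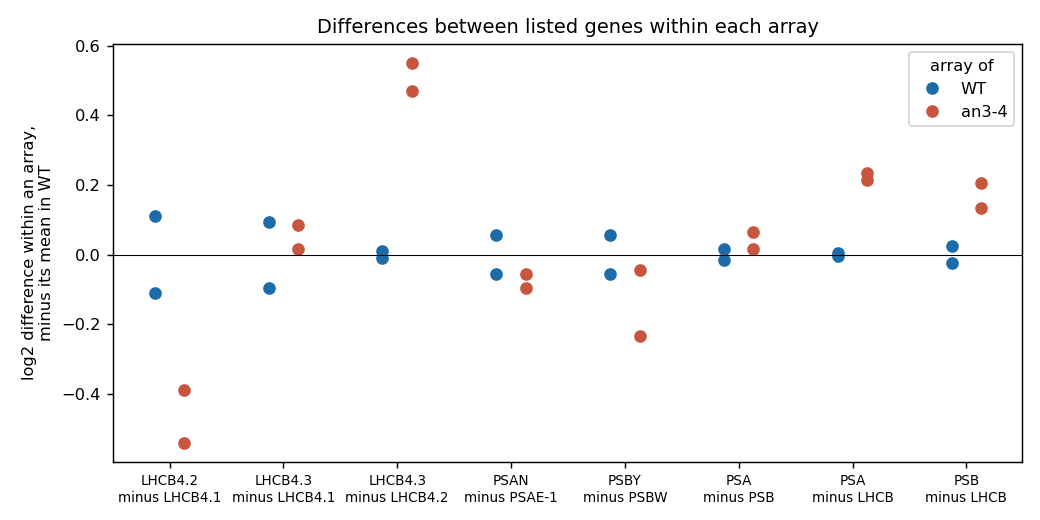
Log2 difference between listed genes, or between the mean of 1 group and another, within each array, shown as its distance from the wild-type mean of that difference; blue points are the 2 wild-type arrays and red points the 2 an3-4 arrays. The differences between single genes that leave out LHCB4.2 overlap between genotypes or meet, and the means of those with LHCB4.2 lie -0.46 and 0.51 from wild type.

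Among genes of other photosynthesis lists, PORB rose. The 7 lists held 96 loci, of which 17 had a named probe set. Of the 17, 1 rose and 0 fell, a share of 5.88% beside the 12.3% of all tested probe sets, and 0 were called on the deposited scale. Their median log2 fold change was 0.04.

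PORB, a protochlorophyllide oxidoreductase that carries out the light-dependent step of chlorophyll synthesis, had signals of 1488 and 1560 in wild type and of 2046 and 2110 in an3-4. Both an3-4 signals were well above both wild-type signals. The log2 fold change was 0.45 ± 0.07 (limma adjusted p = 0.00133), or 1.36 times the wild-type level. PORB lost the call on the deposited scale (adjusted p = 0.424) and without the intensity trend (0.0505), and kept it in the other 10 alternatives.

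The other 6 measured genes of the 22 on the chlorophyll list were not called. HEME2, an enzyme of the shared tetrapyrrole pathway, had -0.16 ± 0.08 on the log2 scale, and GSA1, HEMB1, CHLI2, CHLM and CHLP lay between -0.14 and 0.04. Of the 18 Calvin-Benson cycle genes 4 were measured, none called, with log2 fold changes from 0.02 to 0.07, and 0 had an unadjusted limma p under 0.05. SBPASE, sedoheptulose-1,7-bisphosphatase, had the smallest p of these, with 0.07 ± 0.09. Of 14 electron transport and ATP synthase genes 3 were measured. PGRL1B, which acts in cyclic electron flow, had 0.37 ± 0.12 with an adjusted p of 0.0655 in limma, and PETM and ATPC1 had 0.16 and 0.05. PSB27, a photosystem II assembly factor, had 0.11 ± 0.09. LPA1, which also acts in photosystem II assembly, had 0.22 ± 0.11, and FTSZ2-1, which acts in chloroplast division, had -0.03 ± 0.09. None of the 3 was called. No regulator on the list, such as GLK1, GLK2 or HY5, had a named probe set, and these were not analysed here. AUR1, an Aurora kinase of dividing cells and the 1 measured gene of 6 on the proliferation list, had -0.18 ± 0.09 and was not called.

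The plastid-encoded partners were read beside the nuclear genes. Of 5 plastid psa genes 2 rose, psaA and psaI, with log2 fold changes of 0.29 and 0.35, and of 15 plastid psb genes 3 rose, psbA, psbB and psbT, with 0.56, 0.38 and 0.32, while 0 of the 20 fell in limma and 0 were called on the deposited scale. The 5 that rose are 25% of the 20, beside 6.57% of all tested probe sets called higher. This share was not tested, and the 20 may not be separate readings. Among those that rose, psbB and psbT have consecutive locus numbers. Calls were not confined to the photosystem genes of the plastid. Among its other named genes rps4 (1.26), accD (0.41), ndhD (0.36), atpH (0.33), petA (0.29), clpP (0.27) and atpE (0.25) were called higher. Of these other genes ccsA (-0.37) was called lower. The share called among all plastid genes was not computed. The difference between plastid and nuclear genes was not tested.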

How the data were processed

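The authors deposited linear signal intensities, 1 for each probe set on each array, made with MAS5 per the submitters' processing notes; version, target and chip definition are not given in the sources used here. MAS5 corrects each array for background and for mismatch probes and then scales it. Per the labels' protocols, 10 µg of total RNA went into each labelling. The small number of arrays limits precision. Saturation could not be checked from these values, whose largest is 7968.

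Each array was multiplied by 1 factor to reach a common mean, trimmed by 2% at each end. The scale as deposited, with an offset of 0.24 on the log2 scale between the pairs, gave infinite prior degrees of freedom in limma and a median residual SD of 0.20, against 11.1 and 0.11 here. Signals were fitted in limma 3.58.1 under R 4.3.3 (lmFit, eBayes with intensity trend, genotype as the only term, 2 residual degrees of freedom). Left out were 64 controls and the dimmest 40% of the rest by mean log2 signal. Errors of log2 fold changes are SE.

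Names came from the platform annotation, through gene identifiers and the RefSeq table of TAIR10.1. Of 22746 probe sets, 13513 had 1 gene, 503 several and 8730 none, and 13436 matched the table. Every matched listed gene is described, and other lists by called members or else the smallest p. The plastid genes and some remaining list members were added after values were seen. The members, lists and the common scale were chosen with earlier results of these data known.

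On simulated data over 13647 probe sets, 60.4% of 96 changes of 1 and 94.3% of 87 changes of 2 on the log2 scale were recovered, with 3 false calls. Changed probe sets that fell below the filter were not counted. The largest change among the listed genes was -0.39, for LHCB4.2, and recovery of changes that small was not simulated. Alternatives covered scale, filter, offset, variance trend, replicate block and leaving out each array.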

Additional observations from a re-analysis of the deposited data

How the results depend on the processing

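Over 12 alternatives, the 896 probe sets called higher and 789 called lower were 197 and 196 on the deposited scale and 545 and 445 without the intensity trend. Fits without 1 array called between 473 and 683 higher and between 498 and 563 lower; these borrow the spread of the genotype that still has both arrays. Among the 7 listed genes the count lower, 1, was 0 on the deposited scale, without a filter and without the trend, and 0 to 1 without 1 array. The count higher was 0 except for 1 with the replicate block, PSAE-1 (limma adjusted p = 0.0405). Same-numbered arrays share a deposited scale, and the labels tie them by number alone. Once that scale is removed, their deviations over all tested probe sets correlated at 0.0353. The listed genes were still brighter on replicate 1 in both genotypes, except LHCB4.1 in wild type, which was almost level. Whether arrays of 1 number belong together was not tested. With the replicate block LHCB4.2 had a limma adjusted p of 1.49e-04, PGRL1B passed at 0.0493 and 2154 probe sets were called. The PSA median minus that of PSB and LHCB genes together, 0.08, was 0.13 after quantile normalization and 0.05 to 0.10 without 1 array; the PSA minus PSB median stayed between 0.02 and 0.07 throughout. JAG passed after median centring (log2 fold change -0.62) and without wild-type replicate 1 (-0.83), and ranged from -0.83 to -0.31 without 1 array. In the same fits LHCB4.1 ranged from 0 to 0.14, LHCB4.3 from 0.02 to 0.23, PSAE-1 from 0.11 to 0.28, PSAN from 0.01 to 0.22 and PSBW from 0.16 to 0.20. Signs changed for 11 of 28 genes, none of them called: after median centring PSBY and ATPC1 were at 0, CHLI2 at -0.01, PRK at -0.02 and PGK2 at -0.03, and CHLM at 0.01 after quantile normalization. Without 1 array, PSBY ranged from -0.07 to 0.16, ATPC1 from -0.02 to 0.12, PGK2 from -0.07 to 0.10, PRK from -0.05 to 0.11, SBPASE from -0.04 to 0.18, PSB27 from -0.01 to 0.24, CHLM from -0.08 to 0.04, GSA1 from -0.07 to 0.04, YAB3 from -0.14 to 0.03 and PYK10 from -0.04 to 0.14. The causes of these changes were not tested. Each listed gene had 1 probe set, none shared, so taking all or only unshared probe sets changed nothing by construction.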
